A study of Mus musculus with 6 samples.

Results

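The transcripts of 7 immunoglobulin genes were followed through single-cell RNA-Seq libraries of mouse islets: the constant genes *Igkc*, *Ighm*, *Ighd*, *Iglc1*, *Iglc2* and *Iglc3*, and *Jchain*. They were chosen by symbol, 7 of 32285 genes in the count matrices, because *Igkc* had been seen to follow the uneven number of B cells between libraries, so its relation to that number is given as a description with no test. Mice on a C57/BL6 background gave their islets at an age of 12 to 14 weeks, 3 of them WT and 3 β14-3-3ζ–KO, and 3 libraries per genotype were deposited, named here WT 1 to WT 3 and KO 1 to KO 3. The KO mice carried floxed exon 4 of *Ywhaz*, the gene of 14-3-3ζ, and the Ins1-CreThor allele, which is active in β cells, and per the study's methods the WT littermates carried the same Cre, so that only β cells were targeted and B cells were not. Per the same methods, islets were picked by hand and cultured overnight before they were dispersed, and dead cells were then removed. No blood or lymphoid tissue is named there as a source of these libraries.

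An antibody is built from heavy and light chains, and each chain joins a variable part to a constant part. *Igkc* encodes the constant part of the κ light chain, *Iglc1*, *Iglc2* and *Iglc3* those of the λ light chains, *Ighm* the heavy chain of IgM and *Ighd* that of IgD, while *Jchain* encodes the joining chain that links secreted IgM and IgA into polymers. A naive B cell carries IgM and IgD on its surface together and as a rule uses light chains of a single class, whereas a plasma cell secretes antibody and devotes much of its mRNA to it. In droplet libraries, RNA set free by broken cells can be captured with any cell, so that transcripts made in great amounts by a few cells are also read in cells that do not make them.

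The genes lie at 4 loci of GRCm38 (mm10). *Igkc* (ENSMUSG00000076609) is on chromosome 6 from 70726435 to 70726966 on the plus strand. *Ighm* (ENSMUSG00000076617; chromosome 12, 113418558 to 113422730, minus strand) ends 2233 bases before *Ighd* (ENSMUSG00000104213; 113406604 to 113416324), and both are spliced from a shared primary transcript. *Jchain* (ENSMUSG00000067149) is outside the immunoglobulin loci, on chromosome 5 from 88519809 to 88527891, minus strand. The λ genes are on the minus strand of chromosome 16, with *Iglc1* (ENSMUSG00000105906) from 19061618 to 19062071, *Iglc3* (ENSMUSG00000105547) from 19065230 to 19065681, and *Iglc2* (ENSMUSG00000076937) from 19198396 to 19200351. The last 300 bases of the 3 coding parts, up to the stop codon, are shown because their likeness bears on every λ value that follows. They were taken from the GENCODE vM21 transcripts, each is read 5′ to 3′, and capitals mark the bases that differ from *Iglc2* or have no partner in it.
Iglc2 (chr16:19198536-19198835, minus strand): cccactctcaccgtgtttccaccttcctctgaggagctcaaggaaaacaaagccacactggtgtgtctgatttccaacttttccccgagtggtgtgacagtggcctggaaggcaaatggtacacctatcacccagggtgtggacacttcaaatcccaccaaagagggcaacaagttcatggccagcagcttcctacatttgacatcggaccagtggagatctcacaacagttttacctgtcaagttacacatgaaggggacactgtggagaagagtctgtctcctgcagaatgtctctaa
Iglc3 (chr16:19065365-19065664, minus strand): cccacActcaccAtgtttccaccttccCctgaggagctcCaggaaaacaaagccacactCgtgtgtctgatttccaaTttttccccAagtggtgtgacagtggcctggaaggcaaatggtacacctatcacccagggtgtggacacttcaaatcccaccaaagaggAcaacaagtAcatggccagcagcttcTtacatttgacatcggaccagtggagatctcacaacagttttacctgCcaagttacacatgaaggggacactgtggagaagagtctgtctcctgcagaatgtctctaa
Iglc1 (chr16:19061752-19062051, minus strand): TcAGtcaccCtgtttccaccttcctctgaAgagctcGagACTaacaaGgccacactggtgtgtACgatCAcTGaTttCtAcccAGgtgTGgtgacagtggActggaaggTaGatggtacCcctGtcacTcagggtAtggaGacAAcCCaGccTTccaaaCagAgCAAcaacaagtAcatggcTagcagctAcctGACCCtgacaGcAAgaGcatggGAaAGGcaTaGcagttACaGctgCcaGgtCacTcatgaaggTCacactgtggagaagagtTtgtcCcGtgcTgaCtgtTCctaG
*Iglc3* and *Iglc2* were equal at 306 of 317 aligned bases of the whole coding part (96.5%), with an unbroken run of 79 equal bases, and at 92.6% of the bases after the stop codon, where 3′ reads fall. *Iglc1* was 74.7% identical to *Iglc2* over the coding part and 58.1% after the stop codon. The longest equal run of *Iglc3* and *Iglc2* after the stop codon was 39 bases. The split of reads between *Iglc2* and *Iglc3* may be less certain than that of *Iglc1*, and how reads mapped was not tested. Unique molecular identifiers (UMIs) count molecules by their 3′ end, so values were not divided by gene length, and membrane and secreted forms of a heavy chain cannot be told apart.

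Raw matrices held 4400 to 10722 barcodes and 74083947 to 98294915 UMIs per library, of which 1801 to 7479 cells passed the filters, and between 1 and 14 kept barcodes were shared by any pair of libraries. The targeted gene followed the labels: *Ywhaz* in β cell–like cells stood at 123, 167 and 162 CPM (counts scaled to the same total of UMIs) in WT 1 to 3 and at 18.1, 16.5 and 18.3 CPM in KO 1 to 3, a change of −3.11 ± 0.08 on the log2 scale (SE, adjusted P = 6.87e-07, edgeR quasi-likelihood test over 13744 genes). Cells were clustered without the immunoglobulin genes and named from marker genes. B cell–like cells carried the receptor signaling chain *Cd79a* in 97.8% of cells, *Cd79b* in 95.5% and the surface protein CD20 (*Ms4a1*) in 83.6%. In β cell–like cells, *Cd79a* was seen in 14.4% (8.64% to 18.7% by library) and *Cd79b* in 1.47%. Plasma cell–like cells carried *Mzb1*, a chaperone of antibody assembly, in 99.3% of cells and syndecan 1 (*Sdc1*) in 76.9%. A further 164 cells were led by cell cycle genes, were left unnamed and are called dividing cells here. The naming rule ranks types first by markers among the leading genes of a cluster. By it these cells came nearest to plasma cells, with 6 of 7 markers raised. With no doublets called, a cluster of 272 cells led by cell cycle genes came nearest to B cells instead, with 9 of 9 markers raised.

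B cell–like cells were very unevenly spread, and the spread did not follow genotype. The 3 WT libraries held 201 (WT 1), 1201 (WT 2) and 29 (WT 3) of them, against 13 in KO 1, 1592 in KO 2 and 78 in KO 3, which is 0.442% to 26.4% of kept cells. The genotypes overlapped throughout, with 477 ± 633 (SD) in WT and 561 ± 893 in KO (n = 3 each, exact permutation P = 0.9, 2-sided, where the smallest P that this design allows is 0.1). Plasma cell–like cells were found in WT 2 (51 cells) and KO 2 (96 cells) and in no other library. Among 66 barcodes of WT 1 left out as doublets, 10 carried 20 or more *Igkc* UMIs, up to 11525. When no doublets were called, the plasma cell–like cluster held 2 barcodes of WT 1, and whether these were among the 10 was not tested. The dividing cells numbered 2 in WT 1, 103 in WT 2 and 59 in KO 2. How the islets came to hold these cells is not stated in the labels, and their number cannot be told apart from other differences between mice or preparations.

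In B cell–like cells, *Igkc* was the highest of the 7 genes in every library. Its mean was 35.0, 27.3 and 19.4 UMIs per cell in WT 1 to 3 and 33.7, 22.5 and 23.2 in KO 1 to 3, or 6024, 4843 and 5203 CPM against 7225, 4162 and 4706 CPM. The highest and the lowest of the 6 CPM values were both KO libraries, so that the KO range enclosed the WT range. *Ighm* followed with 15.0, 11.7 and 6.41 UMIs per cell in WT and 13.3, 7.03 and 8.65 in KO, and its CPM ranged from 1298 in KO 2 to 2854 in KO 1. *Ighd* stood at 4.16, 2.66 and 2.76 UMIs per cell in WT and 2.23, 2.32 and 2.87 in KO. Both heavy chain genes thus overlapped between genotypes, and *Ighd* was below *Ighm* in each library.

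The λ genes were lower than *Igkc*, but *Iglc2* and *Iglc3* were present in most B cell–like cells. *Iglc2* averaged 6.96, 5.47 and 5.62 UMIs per cell in WT 1 to 3 and 4.54, 3.98 and 6.21 in KO 1 to 3, and *Iglc3* averaged 5.36, 4.65 and 3.69 in WT and 5.92, 3.34 and 5.40 in KO. *Iglc1* was the lowest λ gene in every library, at 3.47, 2.32 and 1.48 UMIs per cell in WT and 0.769, 1.64 and 2.15 in KO. The order of *Iglc2* and *Iglc3* was turned in KO 1, which rests on 13 cells. Shares of cells with at least 1 UMI ran from 89.7% to 100% for *Igkc*, 96.6% to 100% for *Ighm*, 75.9% to 93.0% for *Ighd*, 89.4% to 94.0% for *Iglc2*, 79.3% to 94.0% for *Iglc3* and 23.1% to 45.5% for *Iglc1*. The median depth of these cells was 3867 to 5053 UMIs. Thinned to 2000 UMIs per cell, which left out 43 shallower cells, *Igkc* was seen in 90.6% to 100.0%, *Ighd* in 55.3% to 72.6% and *Iglc1* in 14.3% to 30.9%. For comparison, *Iglc2* had a UMI in 2.26% of T cell–like cells with under 20 *Igkc* UMIs, whose median depth by library was 4554 to 5535 UMIs.

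*Jchain* was low in B cell–like cells, and a UMI of it was found in few of them. The mean was 0.239, 0.152 and 0 UMIs per cell in WT 1 to 3 and 0, 0.202 and 0.0128 in KO 1 to 3, and 0% to 8.16% of cells had a UMI. The 0 in WT 3 and in KO 1 comes from 0 of 29 and 0 of 13 cells, and at a limit of 3 counts this allows a UMI in up to 10.3% and 23.1% of cells. Of the 553 *Jchain* UMIs in 3114 B cell–like cells, 66.9% lay in 10 cells, but the libraries differed. In WT 2, 98 cells had a *Jchain* UMI and the 10 highest held 49.5% of the UMIs, while in KO 2 there were 69 such cells and the 10 highest held 81.4%. The 10 cells with 5 or more *Jchain* UMIs had a median of 150 *Igkc* UMIs, against 21 in cells with none.

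No member passed the test between genotypes in B cell–like cells. UMIs were summed over the B cell–like cells of each library, 6846 genes passed the filter on low counts, and none of them (0%) was called at an adjusted P under 0.05, while 7 of 7 members were tested and 0 were called. The log2 fold changes of KO over WT were 0.03 ± 0.23 (SE) for *Igkc*, −0.12 ± 0.25 for *Ighm*, −0.27 ± 0.25 for *Ighd*, −0.46 ± 0.29 for *Iglc1*, −0.22 ± 0.25 for *Iglc2*, 0.14 ± 0.25 for *Iglc3* and 0.05 ± 0.44 for *Jchain*, with adjusted P from 0.892 to 0.999 (edgeR). At an unadjusted P under 0.05 the count was 0 of 7, against 491 of all genes tested (7.17%), and by DESeq2 no member and 0 of all genes passed, with 53 genes at an unadjusted P under 0.05. With replicate numbers as a block, 6 genes and no member were called. Libraries of the genotypes overlapped for all 7 members, whereas 9.19% of all genes tested did not overlap. The median of the members was −0.12 and that of all genes 0.01. The lowest adjusted P of any gene was 0.0592, shared by *S100a6* (log2 fold change −2.53), *S100a4* (−2.41) and *Hist1h2ap* (−2.27), named here after their values were seen. With 13 cells in KO 1 and 29 in WT 3, these sums differ widely in depth, from 60622 to 8624107 UMIs.

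**Figure D1:**
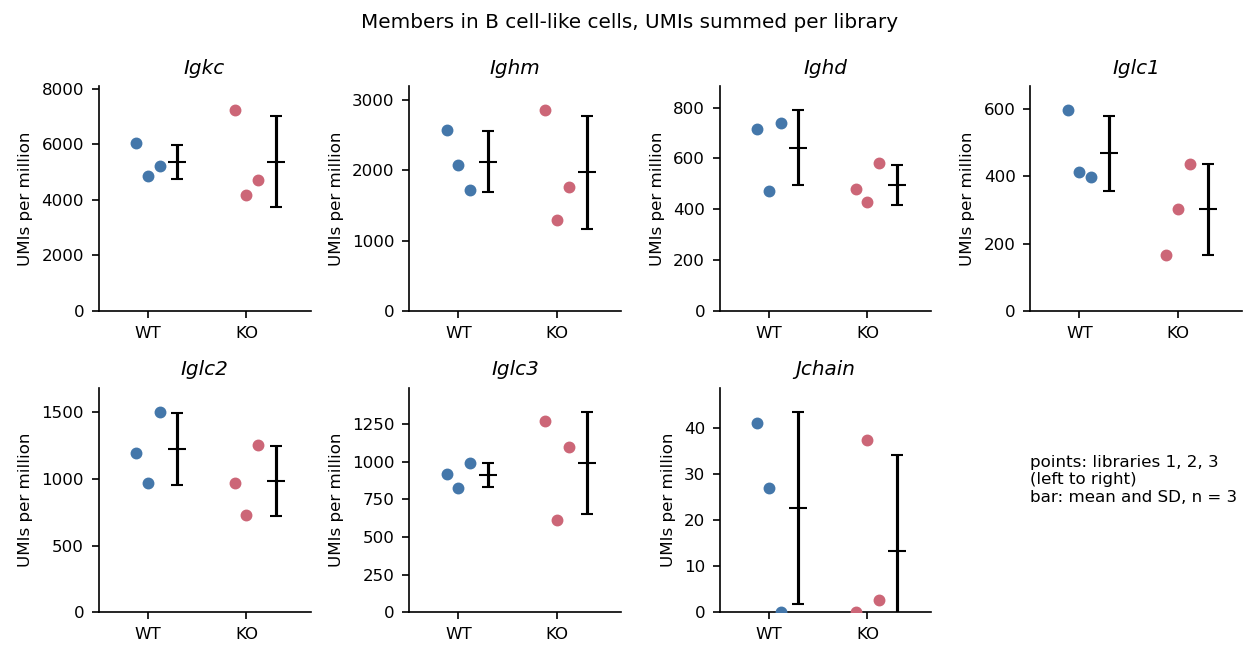
Level of each of the 7 genes in B cell–like cells, in CPM of the UMIs summed per library, with 1 point per library (3 WT, 3 KO) and the mean with its SD as a bar, which for *Jchain* in KO is cut off at 0. *Igkc* lies between 4162 and 7225 CPM and *Jchain* between 0 and 41.1 CPM, and the genotypes overlap for every gene.

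Light chain use was read cell by cell, with a cell called λ-dominant when its *Iglc1*, *Iglc2* and *Iglc3* UMIs together exceeded its *Igkc* UMIs. By this rule 361 of 3114 B cell–like cells (11.6%) were λ-dominant and 2669 were κ-dominant. The share was 11.9% in WT 1 (95% exact interval 7.80% to 17.2%), 12.1% in WT 2 (10.3% to 14.1%) and 10.3% in WT 3 (2.19% to 27.4%). It was 0% in KO 1 (0% to 24.7%), 10.9% in KO 2 (9.44% to 12.6%) and 19.2% in KO 3 (11.2% to 29.7%). WT libraries lay close together and KO libraries on both sides of them, with 11.5 ± 0.962% (SD) in WT and 10.1 ± 9.65% in KO (n = 3 each, exact permutation P = 0.8). The KO spread rests on KO 1 and KO 3, the libraries with 13 and 78 cells. These intervals cover counting error only.

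The rule is a threshold on a continuous measure, and many cells lay near it. Of the B cell–like cells, 1628 (52.3%) drew between 25% and 75% of their light chain UMIs from the λ genes. κ-dominant B cell–like cells had a median of 23 *Igkc* UMIs and 7 λ UMIs, and the λ genes made up 24.8% of their light chain UMIs. In these 2669 cells *Iglc2* averaged 4.25, *Iglc3* 3.80 and *Iglc1* 1.10 UMIs per cell, and 90.5%, 90.3% and 38.8% of them had a UMI. T cell–like cells with under 20 *Igkc* UMIs, read in the same libraries at like depth, held 0.0302 *Iglc2* and 0.0257 *Iglc3* UMIs per cell. κ-dominant B cell–like cells thus held more λ UMIs than these T cell–like cells, and the part of free RNA in either level was not tested. In WT 3, KO 1 and KO 3, where the T cell–like cells held 0 λ UMIs, κ-dominant cells held 5.22, 4.54 and 5.37 *Iglc2* UMIs.

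λ-dominant B cell–like cells had a median of 19 λ UMIs and still 7 *Igkc* UMIs. All λ genes shared these cells, with *Iglc1* the highest in 119, *Iglc2* in 156 and *Iglc3* in 86. Of the 105 B cell–like cells with 10 or more *Iglc1* UMIs among the λ-dominant ones, 36 also had 10 or more of *Iglc2* or *Iglc3*. A stricter rule, at least 3 light chain UMIs and 90% of them from a single class, placed 81 cells as λ and 238 as κ out of 3082 and left the rest unplaced. In plasma cell–like cells the classes stood apart: 7 of 147 (4.76%) were λ-dominant, 3 of 51 in WT 2 and 4 of 96 in KO 2, and 1 cell lay between 25% and 75%. The λ-dominant plasma cell–like cells had medians of 2577 λ and 0 *Igkc* UMIs, and the κ-dominant ones 4266 *Igkc* and 59.5 λ UMIs. λ genes were 2.20% of the light chain UMIs of κ-dominant plasma cell–like cells.

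**Figure D2:**
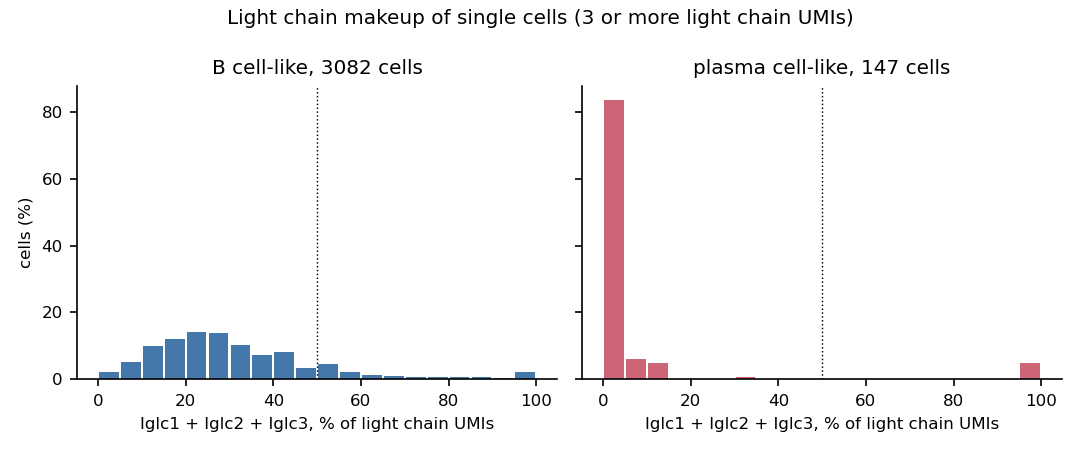
Histogram of the share of a cell's light chain UMIs that came from the λ genes (x axis, %) against the share of cells (y axis, %), for 3082 B cell–like and 147 plasma cell–like cells. Plasma cell–like cells gather at the ends, with 83.7% of them under 5% λ, against 2.04% of B cell–like cells, most of which lie between the end and the dotted line at 50%.

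IgM and IgD transcripts were found together in most B cell–like cells, with a UMI of both in 2512 of 3114 (80.7%), *Ighm* alone in 520 and *Ighd* alone in 33. The ratio of *Ighm* to *Ighd* UMIs was 3.59, 4.39 and 2.33 in WT 1 to 3 and 5.97, 3.03 and 3.01 in KO 1 to 3. KO 1 held the highest ratio and WT 3 the lowest, both libraries with few cells, and the genotypes overlapped. On the log2 scale the KO mean was 0.19 above the WT mean (1.92 ± 0.57 against 1.73 ± 0.47, SD, n = 3 each, exact permutation P = 0.7). The most abundant heavy chain was *Ighm* in 2783 cells and *Ighd* in 272, and a switched isotype in few others, of which 9 were *Ighg1*, 8 *Ighg2b*, 5 *Ighg3*, 4 *Ighg2c* and 2 *Igha*. *Ighe*, the heavy chain of IgE, gave 1 UMI in all B cell–like cells.

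Plasma cell–like cells of WT 2 and KO 2 carried the same genes at a far higher level. *Igkc* averaged 5144 UMIs per cell in WT 2 and 4013 in KO 2, *Ighm* 870 and 667, and *Jchain* 409 and 269. All were far above the means of B cell–like cells of the same library, 27.3 and 22.5 for *Igkc* and 0.152 and 0.202 for *Jchain*. *Ighd* went the other way, with 1 UMI in the 51 cells of WT 2 and 8 UMIs in the 96 cells of KO 2, or 0.0196 and 0.0833 per cell against 2.66 and 2.32 in B cell–like cells. The constant genes and *Jchain* took up a median of 43.9% (WT 2) and 40.3% (KO 2) of all UMIs of a plasma cell–like cell, and 0.714% to 1.30% in B cell–like cells. With 1 library per genotype, these values have no replicate check and no test was made.

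The λ genes of plasma cell–like cells differed between the libraries, and a few cells decided some of the means. *Iglc2* averaged 163 UMIs in WT 2 and 30.1 in KO 2, *Iglc3* 20.5 and 82.4, and *Iglc1* 92.4 and 155. The 3 λ-dominant cells of WT 2 averaged 2150 *Iglc2* UMIs and the 4 of KO 2 averaged 16.5, against 38.8 and 30.7 in the κ-dominant cells. *Iglc1* was on average 1087 and 3242 UMIs in these λ-dominant cells. The heavy chain made also differed. In WT 2, 33 plasma cell–like cells had *Ighm* as their most abundant heavy chain, 12 *Ighg1*, 2 *Igha*, 2 *Ighg3*, 1 *Ighg2b* and 1 *Ighg2c*. In KO 2, *Ighm* led in 49 cells, *Ighg2c* in 17, *Ighg2b* in 14, *Ighg1* in 8, *Igha* in 5 and *Ighg3* in 3. *Ighm* was thus the commonest in both libraries, followed by *Ighg1* in WT 2 and by *Ighg2c* and *Ighg2b* in KO 2.

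*Jchain* was found in plasma cell–like cells of every heavy chain. In WT 2 its median was 363 UMIs in the 33 cells led by *Ighm* and 398 in the 12 led by *Ighg1*, and the 2 cells led by *Igha* had a median of 852.5. In KO 2 the medians were 292 for *Ighm*, 553 for *Igha*, 165 for *Ighg2c*, 150.5 for *Ighg2b*, 101 for *Ighg1* and 71 for *Ighg3*. Cells led by *Igha* had the highest median in both libraries, on 2 and 5 cells, and the ranges overlapped, with 2 to 868 *Jchain* UMIs in *Ighm* cells of WT 2 and 0 to 1128 in those of KO 2. The mean levels of dividing cells lay between the other classes, with 740 *Igkc*, 281 *Ighm*, 51.9 *Jchain* and 1.20 *Ighd* UMIs per cell in WT 2 and 445, 133, 5.78 and 1.63 in KO 2. A few cells carried these means. Their median was 93 *Igkc* UMIs in WT 2 and 61 in KO 2, and 10 cells held 68.3% and 89.1% of their *Jchain* UMIs. Together, the members and the IgG and IgA heavy chain genes took up a median of 1.09% and 0.857% of the UMIs of a dividing cell. That was near the 0.974% and 0.714% of B cell–like cells of the same libraries.

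Plasma cell–like cells were few but held most of the *Igkc* UMIs of their libraries. They were 0.682% of kept cells in WT 2 and 1.59% in KO 2 and held 68.7% and 82.3% of all *Igkc* UMIs of kept cells. B cell–like cells held 8.58% in WT 2 and 7.67% in KO 2, and dividing cells held 19.96% and 5.60%. Dividing cells thus held more than B cell–like cells in WT 2 and less in KO 2. In the libraries without plasma cell–like cells among the kept ones, B cell–like cells held 69.4% (WT 1), 90.2% (WT 3), 89.2% (KO 1) and 97.2% (KO 3). In WT 1, 2 dividing cells held a further 27.4%. All these shares leave out barcodes removed by the filters. For WT 1 these matter most: its kept cells held 10154 *Igkc* UMIs in all, while its 66 barcodes removed as doublets averaged 345 each.

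β cell–like cells do not make antibody, and the members read in them were highest in the libraries that held the most B cells. *Igkc* averaged 0.212 UMIs per β cell–like cell in WT 1 (exact Poisson interval 0.180 to 0.247), 1.67 in WT 2 (1.58 to 1.75) and 0.0110 in WT 3 (0.00529 to 0.0203). It averaged 0.0275 in KO 1 (0.0189 to 0.0386), 1.91 in KO 2 (1.82 to 1.996) and 0.0190 in KO 3 (0.0116 to 0.0293). These intervals cover counting error only. The variance between cells was above the mean in all libraries except WT 3, at 3.59 in WT 2 and 3.22 in KO 2. The order was KO 2, WT 2, WT 1, KO 1, KO 3 and WT 3, and the intervals of the last 3 overlapped each other. B cell–like, plasma cell–like and dividing cells together numbered 1747, 1355, 203, 13, 78 and 29 in that order, so that the 3 highest libraries ranked alike and the 3 lowest did not. A single β cell–like cell with 16 *Igkc* UMIs set the place of KO 1, whose mean was 0.0142 without it. Since *Igkc* was picked for this pattern, no test was made of it.

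Most β cell–like cells of the B cell–rich libraries carried *Igkc*. A UMI was seen in 17.3% of them in WT 1, 76.5% in WT 2, 1.10% in WT 3, 1.42% in KO 1, 79.1% in KO 2 and 1.80% in KO 3, at a median depth of 22525 to 41898.5 UMIs. Thinned to 2000 UMIs per cell the shares were 1.03%, 14.1%, 0.0678%, 0.129%, 15.4% and 0.220%, after 1, 39, 6, 7, 1 and 10 shallower cells were left out. The libraries kept their groups under thinning, with WT 2 and KO 2 high, WT 1 between and the other 3 low. *Igkc* was spread over these cells rather than held by a few: no cell exceeded 35 UMIs in WT 2, or 15 in KO 2. The other members followed at lower levels. *Ighm* averaged 0.0714, 0.409 and 0.00221 UMIs per β cell–like cell in WT 1 to 3 and 0.00833, 0.441 and 0.00285 in KO 1 to 3, and *Jchain* 0.0143, 0.123 and 0.0011 in WT and 0.00416, 0.1001 and 0.00095 in KO. *Ighd* was lowest in WT 2 and KO 2, at 0.0197 and 0.0233, below *Iglc1* (0.0678 and 0.0779), *Iglc2* (0.0591 and 0.0475) and *Iglc3* (0.0350 and 0.0415).

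Between genotypes, the β cell–like level of *Igkc* differed by far less than the spread within them, with 0.630 ± 0.903 UMIs per cell in WT and 0.651 ± 1.09 in KO (SD, n = 3 each, difference 0.0218, exact permutation P = 0.8). Across all genes, 13744 passed the filter on low counts in summed β cell–like cells and 1 was called (0.00728%), which was *Ywhaz*. Of the members, *Igkc*, *Ighm*, *Iglc2* and *Jchain* passed the filter and 0 of these 4 were called, while *Ighd*, *Iglc1* and *Iglc3* did not pass. Log2 fold changes were 0.38 ± 1.68 (SE) for *Igkc*, 0.20 ± 1.58 for *Ighm*, −0.18 ± 1.31 for *Iglc2* and −0.15 ± 1.53 for *Jchain*, with adjusted P from 0.981 to 0.993 (edgeR). With replicate numbers as a block, which pairs WT 2 with KO 2, the estimates were −0.12 ± 0.41, −0.16 ± 0.41, −0.10 ± 0.49 and −0.23 ± 0.32 in the same order of genes, with adjusted P from 0.914 to 0.960 (edgeR), and 23 genes were called. The 4 members had 0 unadjusted P under 0.05, against 4.82% of all genes, and 0 of 4 separated the genotypes, against 11.1% of all genes. In such sums, fewer cells of a source and less RNA per cell of it cannot be told apart.

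**Figure D3:**
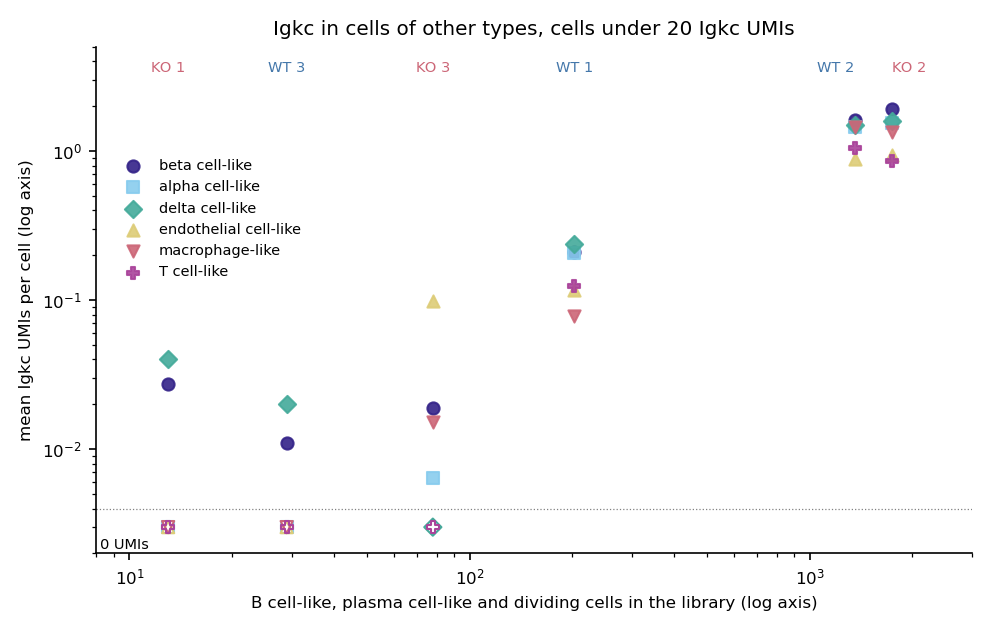
Mean *Igkc* UMIs per cell (y axis, log scale) against the number of B cell–like, plasma cell–like and dividing cells in the library (x axis, log scale), for β, α, δ, endothelial, macrophage and T cell–like cells of the 6 libraries, over cells with under 20 *Igkc* UMIs. Open symbols under the dotted line are at 0 UMIs, and in WT 2 and KO 2 these types lie between 0.853 and 1.91.

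Other cell types of the B cell–rich libraries carried *Igkc* too. Over cells with under 20 *Igkc* UMIs, a limit set after the data were seen, α cell–like cells of WT 2 and KO 2 averaged 1.45 and 1.55 UMIs, δ cell–like cells 1.50 and 1.60, macrophage-like cells 1.45 and 1.35, and dendritic cell–like cells 1.29 and 1.36. Endothelial-like cells averaged 0.889 and 0.935, T cell–like cells 1.04 and 0.853, stellate-like cells 1.28 and 1.11, and ductal-like cells 0.923 and 1.71, the latter from 13 and 7 cells. A cluster of shallow insulin-rich cells averaged 0.552 in WT 2 and 0.873 in KO 2. In WT 2 the lowest level was that of the shallow insulin-rich cells, whose median depth of 2255 UMIs was also the lowest, and the highest was that of β cell–like cells (1.63). In WT 1 the same types averaged 0.0333 to 0.281, and in WT 3, KO 1 and KO 3 from 0 to 0.0991.

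A few cells of other types carried far more *Igkc* and decided some means. Over stellate-like cells of KO 2 the mean was 45.5 UMIs, with 97.7% of the UMIs in 4 of 84 cells, and the highest of these held 3645. T cell–like cells of WT 2 averaged 11.1, with 90.6% of the UMIs in a single cell of 442, which held 4441. In all, 21 cells of other named types held 20 or more *Igkc* UMIs, with a median of 34. Of the 21, 20 also had a *Cd79a* UMI, 12 a *Mzb1* UMI and 4 a *Jchain* UMI. Whether these barcodes held more than 1 cell was not tested.

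*Ighm* stood apart from *Igkc* in T cell–like cells. These held 0.946, 1.36 and 0.500 *Ighm* UMIs per cell in WT 1 to 3 and 0.400, 0.769 and 0.956 in KO 1 to 3, over cells with under 20 *Igkc* UMIs. In WT 3, KO 1 and KO 3 the same T cell–like cells (8, 15 and 68) held 0 *Igkc* UMIs, so that *Ighm* was not accompanied by the light chain. An *Ighm* UMI was found in 33.3% to 59.3% of T cell–like cells, and in 0.221% to 0.333% of β cell–like cells of WT 3, KO 1 and KO 3. Macrophage-like cells of WT 1, WT 3, KO 1 and KO 3 also held *Ighm*, 0.188 to 0.267 UMIs per cell, with 0 to 0.0781 for *Igkc*. The *Ighm* level of T cell–like cells was 0.956 in KO 3 (68 cells) and 0.769 in KO 2 (1343 cells). These libraries held 78 and 1592 B cell–like cells, in the same order. The source of the *Ighm* RNA in T cell–like and macrophage-like cells was not tested.

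The makeup of the members differed between B cell–like and plasma cell–like cells, and that of β cell–like cells was set beside both. In WT 2, *Jchain* was 0.280% of the members' UMIs in B cell–like cells, 6.11% in plasma cell–like cells and 5.15% in β cell–like cells (95% exact interval 4.26% to 6.16%). In KO 2 it was 0.493%, 5.16% and 3.79% (3.09% to 4.60%). The interval of β cell–like cells held the plasma cell–like share near its upper end in WT 2 and lay below it in KO 2, and in both libraries it lay far above the B cell–like share. The intervals cover counting error of the β cell–like UMIs only. The plasma cell–like shares vary too, as 10 cells held 37.9% and 30.3% of their *Jchain* UMIs in WT 2 and KO 2. *Iglc2* made up 10.1% and 9.69% in B cell–like cells of WT 2 and KO 2, 2.43% and 0.578% in plasma cell–like cells, and 2.48% and 1.80% in β cell–like cells. *Ighd* was 4.91% and 5.66% in B cell–like cells, 0.000293% and 0.0016% in plasma cell–like cells, and 0.828% (0.491% to 1.30%) and 0.881% (0.559% to 1.32%) in β cell–like cells. *Ighd* in β cell–like cells, 18 UMIs in WT 2 and 23 in KO 2, thus lay between the classes, below B cell–like and above plasma cell–like cells.

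*Igkc* and *Ighm* told the classes apart less. *Igkc* was 50.3% and 54.9% of the members' UMIs in B cell–like cells of WT 2 and KO 2, 76.8% and 76.9% in plasma cell–like cells and 70.0% and 72.3% in β cell–like cells. *Ighm* was 21.6% and 17.1%, 13.0% and 12.8%, and 17.2% and 16.7%. Per 100 *Igkc* UMIs, *Jchain* gave 0.556 and 0.897 in B cell–like cells, 7.95 and 6.71 in plasma cell–like cells, 7.35 and 5.25 in β cell–like cells and 4.02 and 6.20 in α cell–like cells. As a share of the mean of B cell–like cells in the same library, the β cell–like level was 6.11% and 8.46% for *Igkc*, 3.50% and 6.27% for *Ighm*, 1.08% and 1.19% for *Iglc2*, 0.739% and 1.00% for *Ighd*, and 80.9% and 49.5% for *Jchain*. *Jchain* was therefore the member whose UMIs per β cell–like cell came nearest to those per B cell–like cell. With no doublets called this *Jchain* share in KO 2 was 162%. These shares are per cell, and β cell–like cells were deeper, at medians of 27107 and 22525 UMIs against 4517 and 4880 in B cell–like cells. In CPM, *Jchain* stood at 4.56 and 4.16 in β cell–like cells, below the 26.9 and 37.3 of B cell–like cells.

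**Figure D4:**
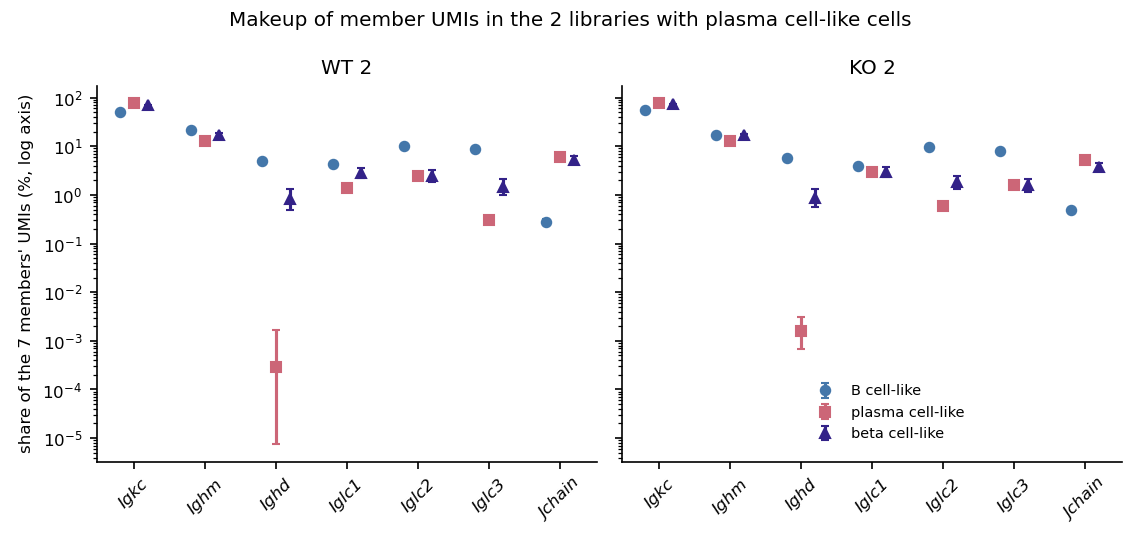
Share of the 7 members' summed UMIs that each gene made up (y axis, %, log scale) in B cell–like, plasma cell–like and β cell–like cells of WT 2 and KO 2, with exact 95% intervals as bars. *Jchain* in β cell–like cells (5.15% and 3.79%) lies near plasma cell–like cells (6.11% and 5.16%), and *Ighd* (0.828% and 0.881%) lies between both classes.

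The switched isotypes, which were not among the members, differed between the libraries in plasma cell–like and β cell–like cells alike. Of the *Igha*, *Ighg1*, *Ighg2b*, *Ighg2c* and *Ighg3* UMIs of plasma cell–like cells, *Ighg1* was 62.8% and *Ighg2c* 5.83% in WT 2, while *Ighg1* was 11.5% and *Ighg2c* 42.4% in KO 2. β cell–like cells of WT 2 held 212 such UMIs, with *Ighg1* at 66.5% (59.7% to 72.8%) and *Ighg2c* at 1.89% (0.516% to 4.76%). β cell–like cells of KO 2 held 454, with *Ighg1* at 19.6% (16.05% to 23.6%), *Ighg2c* at 34.6% (30.2% to 39.2%) and *Ighg2b* at 31.9% (27.7% to 36.4%), the latter 33.1% in plasma cell–like cells. The leading isotype of β cell–like cells was that of the plasma cell–like cells of the same library, *Ighg1* in WT 2 and *Ighg2c* in KO 2, where its interval overlapped that of *Ighg2b*. α cell–like cells, with 22 and 55 such UMIs, had *Ighg1* at 63.6% in WT 2 and *Ighg2c* at 43.6% in KO 2. In B cell–like cells *Ighg2b* led in both libraries, at 35.3% and 43.2%. β cell–like cells of WT 1 held 16 such UMIs, 9 of *Ighg3* and 6 of *Ighg2b*, in a library with 0 plasma cell–like cells kept.

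**Figure D5:**
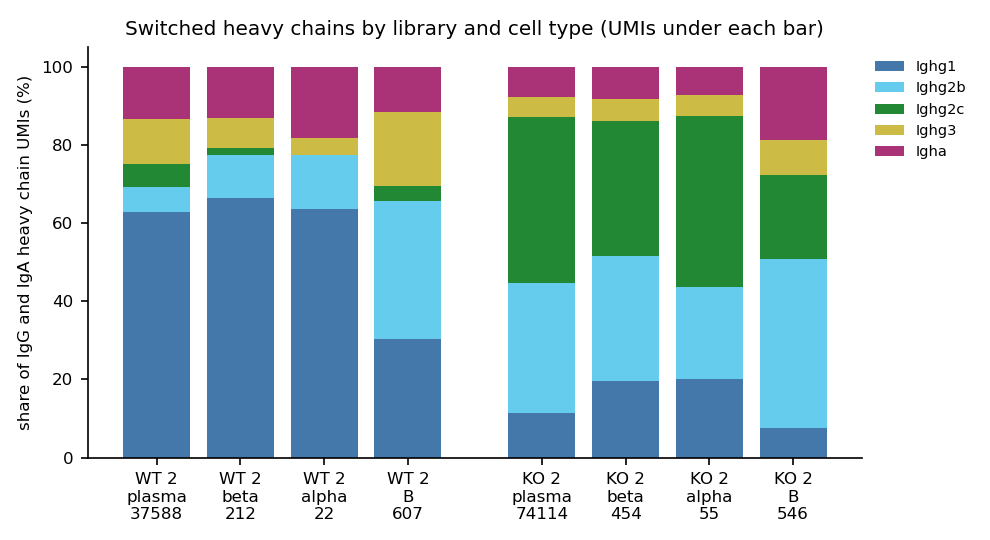
Shares of the switched heavy chain UMIs (y axis, %) by isotype in plasma cell–like, β cell–like, α cell–like and B cell–like cells of WT 2 and KO 2, with the UMI total of each bar printed under it. *Ighg1* is the largest part in plasma cell–like and β cell–like cells of WT 2 (62.8% and 66.5%) and *Ighg2c* in those of KO 2 (42.4% and 34.6%).

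Variable segments were read far less often than constant genes by these 3′ libraries. The 348 listed variable genes (185 heavy, 160 κ and 3 λ) gave 759, 580 and 129 UMIs in B cell–like cells, or 1.97, 0.739 and 0.380 per 100 UMIs of the matching constant genes. No segment dominated there, with *Ighv1-81* at 5.14% of heavy and *Igkv1-117* at 8.10% of κ segment UMIs. *Iglv1* was 58.1% of the λ segment UMIs in B cell–like cells and 90.5% in plasma cell–like cells. Plasma cell–like cells gave 2271, 3429 and 1671 variable UMIs, led by *Ighv1-47* (8.37%) and *Igkv17-127* (10.1%). In β cell–like cells there were 8, 18 and 8.

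Other genes of antibody and B cell biology were counted from fixed lists. In B cell–like sums, 11 of 11 genes of the receptor and co-receptor list were tested and 0 were called, with *Cd79a* at 1435 to 2375 CPM, *Cd79b* at 893 to 1474 CPM and *Ms4a1* at 416 to 825 CPM. Of 8 assembly and switching genes 1 was tested and 0 were called. That gene, *Vpreb3*, lay between 205 and 390.0 CPM, while *Dntt*, the enzyme that adds bases at the joints of variable segments, gave 6 UMIs over all B cell–like cells and *Vpreb1*, a surrogate light chain gene, gave 5. Of 8 plasma cell genes 4 were tested and 0 called, with *Mzb1* at 247 to 610.3 CPM. Of 9 B cell subset genes 6 were tested and 0 called, among them *Fcer2a* (83.6 to 198 CPM), the low-affinity IgE receptor of follicular B cells. Of 9 receptors of immunoglobulins 2 were tested and 0 called, the IgM receptor *Fcmr* (249.5 to 569 CPM) and the inhibitory receptor *Fcgr2b* (9.24 to 99.0 CPM). The median log2 fold changes of these lists were −0.23, −0.32, −0.33, −0.27 and −0.18, against 0.01 over all genes tested. The other 7 constant genes were all below the filter.

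The genes most like *Igkc* were ranked by Pearson's r of log2(CPM + 1), as a description with no test. Over the 6 summed β cell–like samples, which share their libraries and depth, the other members had r from 0.978 to 0.999. Among the 13946 genes considered, the next were the class II genes *H2-Aa* (0.997) and *H2-Ab1* (0.995), *Btd* (0.989), *Cd79b* (0.988), *Arhgap45* (0.986), *Plac8* (0.983) and *H2-Eb1* (0.982). *H2-Aa* stood at 1.57, 4.76 and 0.687 CPM in WT 1 to 3 and 0.966, 5.92 and 0.717 CPM in KO 1 to 3, high in WT 2 and KO 2 as *Igkc* was. Over 49 sums of a cell type in a library, the most alike of 16341 genes were *Mzb1* (0.916), *Ly6d* (0.885), *Pou2af1* (0.882), *Cd79a* (0.866) and *Cd79b* (0.842), and the other members ran from 0.710 for *Ighd* to 0.926 for *Iglc2*. *Cd79a* did not follow *Igkc* in β cell–like cells, where it averaged 0.142 to 0.286 UMIs per cell in every library.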

How the data were processed

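The deposited files hold raw UMI counts per gene and barcode, made by the authors with Cell Ranger 6.0.2 on mm10 per the submitters' processing notes, which also name Seurat; no normalization was applied to these counts. Barcodes with at least 500 genes and at most 10% mitochondrial UMIs were kept, and the highest Scrublet scores, a share that grew with the number of barcodes, were removed as doublets because the automatic threshold marked under 1% of cells. With scanpy 1.11.5, the immunoglobulin genes were set aside, 2000 variable genes, 30 principal components and 15 neighbours were used, neighbours were joined by the Jaccard index of their neighbour lists, and cells were clustered by Leiden at resolution 1. A cluster was named when at least 3 markers of a type were seen in at least 10% of its cells at 1.5 times the level of the rest, with a median of at least 3500 UMIs. Counts were summed per library and type and tested with edgeR 4.0.16 (TMM, filterByExpr, quasi-likelihood) in R 4.3.3. Called genes had a Benjamini-Hochberg adjusted P under 0.05 and changed by over 0.1 on the log2 scale in either direction, and the SE is the log2 fold change divided by the root of F. Single values were compared over the 6 libraries with the exact permutation test, 2-sided. Binomial (Clopper-Pearson) and Poisson intervals are exact at 95%. They treat cells or UMIs of a library as independent and cover counting error only. The edgeR and thinning steps were tested on simulated data.

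The members and gene lists were chosen with earlier results of these data known. The Jaccard weights were also set after first results were seen, in place of weights whose clusters could not be repeated exactly. With those, a few genes but no member were called in B cell–like sums. Named were the members, at most 4 genes per list by UMIs in B cell–like cells, the top variable segments, the 10 genes most like *Igkc* (at least 50 UMIs, of which those ranking highest are printed) and *Ywhaz*; the isotypes beyond these and the 3 genes of lowest adjusted P were named after their values were seen. Alternatives were no filter, a UMI in over 15% of cells of a genotype, library size alone, DESeq2 1.42.0, a replicate block, each library left out, no doublet calls, resolution 2, immunoglobulin genes kept, and cells with a B cell marker UMI left out. Leaving out cells with 20 or more *Igkc* UMIs was added after the data were seen. The study gives 3 mice per genotype for these libraries but does not state that each library is 1 mouse, and P-values measure the spread between libraries. WT and KO libraries share replicate numbers, although no label gives a shared batch. In β cell–like sums the deviations from the group means correlated at 0.474, 0.441 and 0.257 for numbers 1, 2 and 3. In B cell–like sums these correlations were 0.0609, 0.140 and −0.000192. The main tests left the samples unpaired in both kinds of sum, and pairing by number was used only as an alternative, the replicate block. Values of 0 of a gene in n cells allow up to 3 UMIs over them. Some genes of the lists are not reported here.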

Additional observations from a re-analysis of the deposited data

How the results depend on the processing

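No member was called between genotypes in any of 161 fits of single members that passed the main filter, the main fits included. Their lowest adjusted P was 0.636 in B cell–like and 0.789 in β cell–like sums (edgeR or DESeq2). The 0 genes called in B cell–like sums became 68 without a filter, 3 by library size alone, 6 with the replicate block and 5 without doublet calls, and stayed 0 with the 15% filter, with DESeq2, at Leiden resolution 2 and with immunoglobulin genes kept, where 271, 53, 485 and 490 genes had an unadjusted P under 0.05. With 1 library left out the count was 0 to 15 (5 without WT 1, 15 without WT 2, 11 without WT 3, 10 without KO 1, 9 without KO 3, and 0 without KO 2, where 118 genes had an unadjusted P under 0.05). The single gene called in β cell–like sums became 5 without a filter, 5 by library size alone, 7 with DESeq2 and 23 with the replicate block, and stayed 1 when any library was left out. The cause was not tested.

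Signs of small fold changes turned. In B cell–like sums *Jchain* was −0.014 without a filter, −0.10 by library size alone and −0.48 by DESeq2, and *Igkc* was −0.044 without a filter and −0.0095 by library size alone. In β cell–like sums the replicate block gave −0.12 for *Igkc* and −0.16 for *Ighm*, and *Iglc2* was 0.13 without doublet calls.

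With 1 library left out, the KO minus WT difference ranged from −431.5 to 446 for B cell–like cells, from −0.606 to 0.540 for *Igkc* UMIs per β cell–like cell, from −5.99 to 3.63 points for the λ-dominant share and from −0.14 to 0.39 for the log2 ratio of *Ighm* to *Ighd*. The extremes of the first and second came without KO 2 and without WT 2, and both changed sign without WT 1 (−54 cells and −0.187 UMIs), WT 3 (−140 and −0.288) or KO 2. The λ share changed sign without KO 1 and was lowest without KO 3, and the ratio changed sign without WT 3 (−0.067) or KO 1. Log2 fold changes in B cell–like sums ranged from −3.68 to 0.34 (*Jchain*), −0.12 to 0.15 (*Igkc*), −0.34 to 0.083 (*Ighm*) −0.044 to 0.38 (*Iglc3*), −0.46 to −0.15 (*Ighd*), −0.79 to −0.24 (*Iglc1*) and −0.51 to −0.069 (*Iglc2*), with 4 of these 7 lowest without KO 3, and in β cell–like sums from −4.23 to 2.83 (*Jchain*), −4.94 to 3.32 (*Igkc*), −4.95 to 2.76 (*Ighm*) and −2.55 to 1.97 (*Iglc2*), the extremes there without KO 2 and without WT 2. The lowest exact permutation P over all settings was 0.4, and with exchanges within replicate numbers (pairing) it was 0.75 for each of the 4 values, where 0.25 is the smallest possible. The block changed no member's call in either kind of sum.

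Depth limits KO 1 and WT 3, whose 13 and 29 B cell–like cells leave wide intervals, and the β cell–like values of WT 3, KO 1 and KO 3, which rest on 10, 33 and 20 *Igkc* UMIs.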

Other observations

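Barcodes left out by the filters also carried *Igkc*. Those with few genes averaged 0.254, 1.02 and 0.0058 UMIs in WT 1 to 3 and 0.00512, 0.703 and 0.00962 in KO 1 to 3, at median depths of 1006 to 2467.5 UMIs. In WT 1 a single such barcode held 138 *Igkc* UMIs, 38.2% of that group's total. Those with a high mitochondrial share had a median of 1 *Igkc* UMI in WT 2 and in KO 2 and means of 8.75 and 3.38, with 85.6% and 54.5% of the UMIs in 42 and 54 barcodes of 20 or more. Barcodes removed as doublets averaged 345 *Igkc* UMIs in WT 1, 103 in WT 2 and 66.2 in KO 2, of which 99.7%, 97.8% and 94.8% lay in 10, 121 and 77 barcodes of 20 or more, and 0.00685 to 1.21 in the other libraries.

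Receptors of antibodies differed in where they were read. *Fcer1g*, the shared signaling chain of Fc receptors, had a UMI in 99.0% of the 519 macrophage-like and 2.67% of the 3114 B cell–like cells. *Fcmr* was seen in 3.47% and 78.2% of them, and *Fcgr2b* in 68.6% and 23.0%. By library, *Fcgr2b* stood at 106 to 197 CPM in macrophage-like and 9.24 to 99.0 CPM in B cell–like cells. Summed over these unlike cell numbers, the UMIs were 13852 and 215 (*Fcer1g*), 28 and 7149 (*Fcmr*), and 947 and 969 (*Fcgr2b*).

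*Ywhaz* in B cell–like cells, which the Cre is not expected to reach, stood at 339.6, 257 and 314 CPM in WT 1 to 3 and 346, 139 and 182 CPM in KO 1 to 3, a change of −0.60 ± 0.27 on the log2 scale (SE, adjusted P = 0.639, unadjusted P = 0.0371, edgeR). With 1 library left out this ranged from −0.79 (without KO 1) to −0.34 (without KO 2). The highest and the lowest values were both KO libraries.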
